A study of Mus musculus with 8 samples.

Results

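The SLC25 family of mitochondrial carriers was followed in inguinal white adipose tissue, a fat depot under the skin of the groin, in mice with and without Lsd1 in adipocytes. Members were all genes whose symbol is Slc25a followed by a number, and 47 of the 23360 genes in the files met that rule. The mice were 6 weeks old, and each of the 2 genotypes had 4 libraries. Controls carried the floxed Lsd1 allele, and knockouts carried it together with Adipoq-Cre, a recombinase driven by the adiponectin promoter and so active in adipocytes. No group carried Adipoq-Cre without a floxed allele, so Cre and the loss of Lsd1 cannot be told apart. Not given in the sources used here: strain, sex, and whether each library came from a separate mouse. The tests below thus rest on the spread between libraries, and that spread may be technical.

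Carriers of this family sit mostly in the inner mitochondrial membrane and move nucleotides, phosphate, organic acids, amino acids and cofactors between the matrix and the cytosol. Each is built from repeated pairs of membrane-spanning helices and shifts its substrate by opening to one side at a time. In fat cells the citrate carrier supplies carbon for lipid synthesis, the acylcarnitine carrier brings fatty acids to oxidation, and the uncoupling proteins, close relatives under other names, let protons back into the matrix. Kdm1a is the gene of Lsd1, an enzyme that takes methyl groups off histone tails.

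The libraries held 25671837 to 32442724 recovered reads. Kdm1a served as the check of the labels. The deposited values are read counts scaled by 1 factor per library, called scaled reads here, and libraries are listed in the order of replicates 1 to 4. Kdm1a was at 699, 685, 799 and 735 scaled reads in controls and at 566, 578, 547 and 581 in knockouts. Every knockout library lay below every control. Its log2 fold change, knockout minus control, was -0.36 (SE 0.075; by limma, adjusted p = 0.0498), and it passed the threshold in 6 of 23 alternative analyses. The labelled tissue was checked with 9 adipocyte markers, none of which was at 0 in any library, with summed scaled reads of 315328 to 411285 in controls and 261158 to 293184 in knockouts. Of these 7 had a negative fold change. Limma and edgeR called 1 as lower, Cidec, a lipid droplet protein gene (-1.01, limma adjusted p = 0.00179). DESeq2 called Cidec and Lpl (-0.39 by limma), both lower, and 2 were lower at an unadjusted p under 0.05 with limma. All 5 endothelial markers were negative, from -0.41 to -0.06, and limma and edgeR called 0 (2 at an unadjusted p under 0.05), while DESeq2 called Cdh5 (-0.28 by limma) and Kdr (-0.41). Their part in carrier values was not tested. Skeletal muscle markers differed between libraries, all 11 with a positive fold change and none at 0 in any library. Limma called 0 of 11 (9 at an unadjusted p under 0.05), edgeR 0 and DESeq2 5. Shares over all tested genes were 1.64% with limma and 14.5% at its unadjusted p under 0.05. They were 1.49% with edgeR and 5.32% with DESeq2. In a whole fat pad, fewer cells of a type and less RNA per cell cannot be told apart. The summed level of 11 muscle genes was 8947 to 38523 in controls and 197283, 189176, 13500 and 115052 in knockout replicates 1 to 4. Knockout replicate 3 thus stood within the range of the controls on this measure, and its values are given apart wherever a carrier moved with the muscle genes.

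Of the 47 carriers 41 were tested, and 2 differed between genotypes, Slc25a21 and Slc25a4, both higher in the knockout (limma on log2(scaled reads + 1), Benjamini-Hochberg adjusted p under 0.05 over 14591 genes). Over all tested genes 1.64% passed, 1.28% as higher and 0.356% as lower, against 2 of 41 carriers (4.88%). Of these, Slc25a21 was tested only because it was high in the knockouts, so the shares are not read against each other. Of the 41 carriers 0 passed as lower with limma, where 4 were lower at an unadjusted p under 0.05. EdgeR on recovered reads also called Slc25a21 and Slc25a4 alone, where 1.49% of all genes passed, and DESeq2 added Slc25a16 as lower. Groups did not overlap for 5 carriers, 4 higher and 1 lower in the knockout, or 12.2% of those tested, beside 8.65% of all tested genes (5.06% higher and 3.58% lower). An unadjusted p under 0.05 was seen for 8 carriers (19.5%) and for 14.5% of all tested genes. The fold change was negative for 23 carriers (56.1%) and positive for 18, beside 45.4% negative over all tested genes. The median log2 fold change was -0.06 for the carriers and 0.02 for all tested genes, and the carriers' median was positive with muscle markers as a covariate (0.028) and in knockout replicate 3 alone against the controls (0.091).

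**Figure D1:**
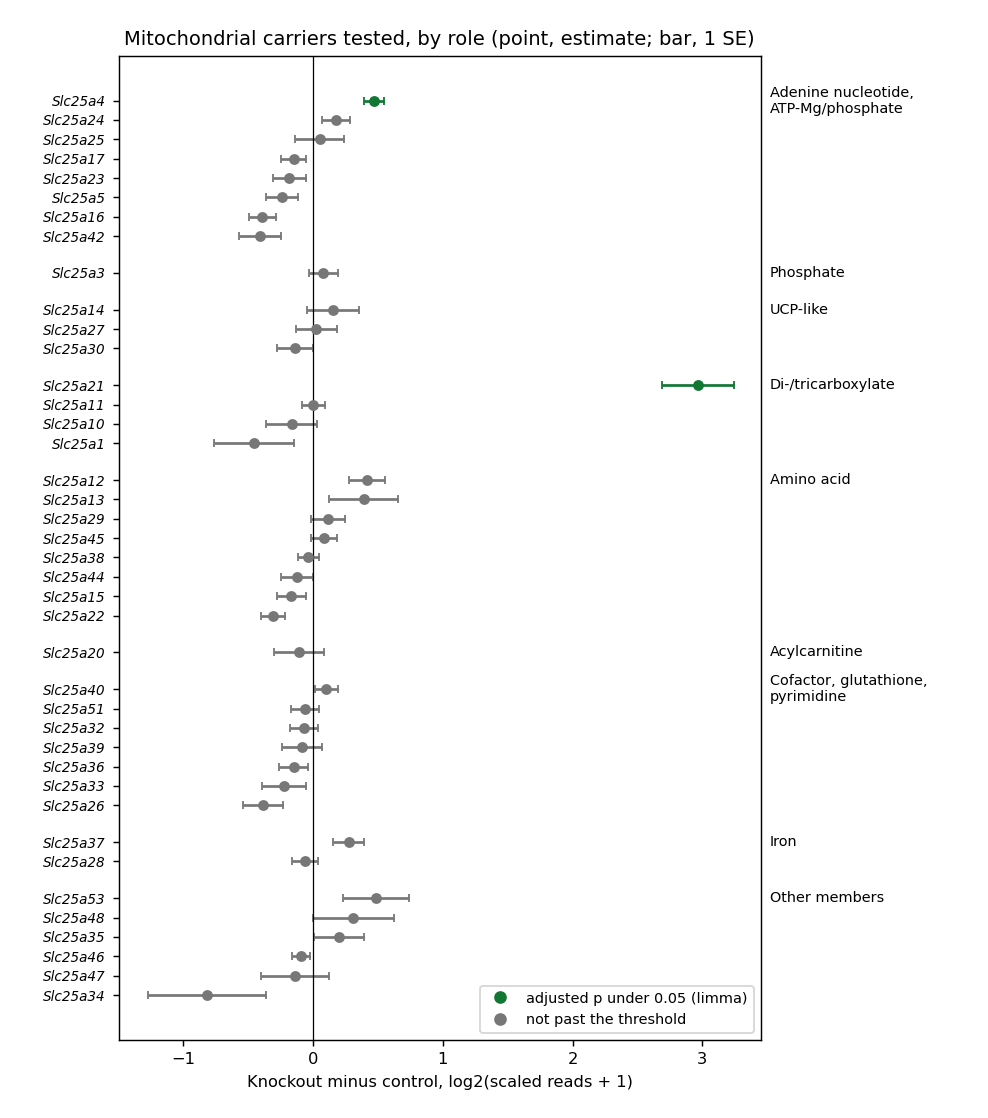
Difference between knockout and control on the log2(scaled reads + 1) scale for 40 of the 41 carriers tested, with 1 standard error, grouped by substrate. Slc25a21 stands at 2.96 and Slc25a4 at 0.47, both past the threshold, and the other carriers plotted lie between -0.82 and 0.49.

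The start regions of Slc25a21 and Slc25a4 are shown because these were the carriers called. Sequences are RefSeq promoters of GRCm38.p6, read 5′ to 3′ along the gene, from 250 bases before to 50 bases after an annotated start. Capitals mark CCAAT and TATAA, searched on both strands.

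Slc25a21, start matching the deposited accession, chr12:57197423-57197722, minus strand: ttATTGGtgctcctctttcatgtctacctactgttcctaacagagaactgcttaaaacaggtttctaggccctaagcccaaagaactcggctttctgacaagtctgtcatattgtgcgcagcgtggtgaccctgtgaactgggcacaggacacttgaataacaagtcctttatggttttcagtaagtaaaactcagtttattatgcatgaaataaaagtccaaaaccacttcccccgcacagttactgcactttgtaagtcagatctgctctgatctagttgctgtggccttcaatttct
Slc25a21, second start listed by RefSeq, chr12:57160594-57160893, minus strand: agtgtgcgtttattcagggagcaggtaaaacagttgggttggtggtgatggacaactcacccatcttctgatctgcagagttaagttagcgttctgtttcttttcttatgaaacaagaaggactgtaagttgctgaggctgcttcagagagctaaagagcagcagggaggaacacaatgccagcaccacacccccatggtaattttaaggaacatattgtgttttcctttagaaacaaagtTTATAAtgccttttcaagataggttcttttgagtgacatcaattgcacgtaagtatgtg
Slc25a4, chr8:46211013-46211312, minus strand: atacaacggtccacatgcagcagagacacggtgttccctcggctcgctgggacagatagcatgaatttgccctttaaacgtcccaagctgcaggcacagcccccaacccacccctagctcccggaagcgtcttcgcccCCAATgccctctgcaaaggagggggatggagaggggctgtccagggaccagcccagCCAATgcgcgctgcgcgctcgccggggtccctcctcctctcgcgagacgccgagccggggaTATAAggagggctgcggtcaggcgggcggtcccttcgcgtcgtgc

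The Slc25a21 starts lay 36829 bases apart and held 4 and 3 CpG dinucleotides, with a GC content of 43.0% and 41.7%. The Slc25a4 start held 25 CpG dinucleotides at a GC content of 65.7%. This RefSeq start lay 222 bases from that of the matching GENCODE M21 transcript, so what its sequence holds depends on the start used. The median over 32851 promoters was 7 CpG and 52.7% GC, and over the 46 promoters found for 36 carriers it was 15 CpG and 59.3% GC. CCAAT occurred 1 time in the first Slc25a21 sequence, on the other strand near its 5′ end, and 2 times in the Slc25a4 sequence. It occurs in 37.4% of all promoters of this length and in 47.8% of the carrier promoters. TATAA was found just after the annotated Slc25a4 start and, as an overlapping match on both strands, just before the second Slc25a21 start. It occurs in 24.9% of all promoters and in 10.9% of carrier promoters. None of the 3 sequences held the core of sites for NRF1, a factor of respiratory genes, which occurs in 4.60% of all promoters and 4.35% of carrier promoters. The estrogen-related receptor element TCAAGGTCA, in 0.423% of all promoters and in 0 of the 46 carrier promoters, was not among these letters either.

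Slc25a21 encodes the oxodicarboxylate carrier, which exchanges oxoadipate, an intermediate of lysine and tryptophan breakdown, for oxoglutarate. It had few reads in control fat. Controls were at 3.90, 1.97, 3.92 and 2.58 scaled reads and knockouts at 31.1, 26.1, 36.7 and 28.0. All knockout libraries lay far above all controls, including knockout replicate 3, which had low muscle markers and the highest value. The mean went from 3.09 ± 0.976 to 30.5 ± 4.64 (SD, n = 4), a ratio of 9.85. It rose by 2.96 on the log2 scale (SE 0.28; by limma, adjusted p = 0.000731). The recovered reads behind these values were only 8, 4, 8 and 5 in controls and 57, 48, 83 and 56 in knockouts. Slc25a21 reached the minimum for testing, 10 scaled reads in 4 libraries, only through the knockouts, so its call was tied to its being high there. Even in the knockout it ranked 40 of 47 carriers in level per kb of transcript, at 11.7 ± 1.78 scaled reads per kb.

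Slc25a21 (NM_172577) spans positions 56712634 to 57197472 of chromosome 12 in GRCm38.p6. Its exons share 189 bases with those of Pax9 on the opposite strand, where reads cannot be assigned without strand. Pax9 itself was at 0 to 1.95 scaled reads in controls and 0 to 3.54 in knockouts, below Slc25a21 in every knockout library. One deposited value covers the gene, so its 2 starts cannot be told apart. The call held when any single library was left out (log2 fold change 2.82 to 3.06). Those fits kept the genes tested with all 8 libraries. Without any 1 knockout library Slc25a21 would have missed the minimum for testing, so this says little about its selection. At a pseudocount of 5 the log2 fold change was 2.13. Knockout replicate 3 alone differed from the controls by 3.24, a value from 1 library.

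The other carriers of di- and tricarboxylates did not pass. Slc25a1, the citrate carrier that feeds cytosolic acetyl-CoA, was the carrier with the highest level per kb in both groups. It was at 29829, 12229, 11597 and 17077 scaled reads in controls and at 9099, 12162, 18021 and 10167 in knockouts. Control replicate 1 was the highest of all, knockout replicate 3 came next, and the groups overlapped. The log2 fold change was -0.46 (SE 0.31, limma adjusted p = 0.541). It was -0.17 without control replicate 1 and -0.043 with muscle markers as a covariate. Slc25a10, which exchanges malate or succinate for phosphate, was at 7886 ± 1896 in controls and 6945 ± 1352 in knockouts (-0.17, SE 0.20, adjusted p = 0.749). Slc25a11, the oxoglutarate and malate carrier of the malate-aspartate shuttle, was at 1734 ± 98.5 and 1740 ± 195, with a log2 fold change of 0.00014 (SE 0.090). It was the most even of the tested carriers between genotypes.

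Adenine nucleotide carriers exchange matrix ATP for cytosolic ADP, and in mice Slc25a4 is the isoform of heart and muscle and Slc25a5 the one of most other tissues. Slc25a4 rose and Slc25a5 did not pass. Controls were at 3918, 4327, 3840 and 3643 scaled reads of Slc25a4 and knockouts at 5434, 5631, 5112 and 5546. The groups were separated, with the lowest knockout library, replicate 3, above the highest control. The mean rose by 38.1%, from 3932 ± 288 to 5431 ± 227 (SD, n = 4). On the log2 scale the difference was 0.47 (SE 0.078; by limma, adjusted p = 0.0186). Slc25a4 (NM_007450) lies on chromosome 8 from 46207168 to 46211062, and its exons overlap no other annotated gene.

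Muscle markers moved with Slc25a4, since the 3 knockout libraries with summed muscle levels of 115052 scaled reads or more were also the 3 highest for this gene. In knockout replicate 3, whose muscle level lay within the range of the controls, Slc25a4 was above all 4 controls, with a log2 difference of 0.38 from them. This is 1 library, chosen after its muscle level was seen, so it is given as a value, and what muscle RNA adds to the Slc25a4 difference was not tested by it. With the muscle score as a covariate the log2 fold change was 0.39 (adjusted p = 0.0763). The call was also lost without control replicate 1 (0.47, adjusted p = 0.0538), control replicate 4 (0.43, 0.0721), knockout replicate 2 (0.45, 0.0841) or knockout replicate 4 (0.46, 0.0784) and with mammary markers as a covariate (0.46, 0.0807). That mammary score was high only in knockout replicates 1 and 2 (mean log2 level 3.53 and 2.91, against 1.09 to 1.84 elsewhere). It is thus partly confounded with genotype. In all 23 alternatives the fold change stayed between 0.38 and 0.54.

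Slc25a5 was at 4552, 4605, 3898 and 4027 scaled reads in controls and at 3197, 3770, 4463 and 3149 in knockouts. Of the knockouts only replicate 3 was within the control range, and the other libraries of that genotype were below it. Its log2 fold change was -0.24 (SE 0.12, limma adjusted p = 0.408). It turned to 0.068 in knockout replicate 3 alone against the controls. Slc25a5 lies on the X chromosome from 36795597 to 36798808 and has an annotated pseudogene, Slc25a5-ps, so some of its reads are uncertain.

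The balance of the 2 isoforms followed from these values. Per kb of transcript, Slc25a4 made up 44.5, 46.7, 47.8 and 45.7% of their sum in controls and 61.3, 58.2, 51.6 and 62.1% in knockouts. The share was above 50% in every knockout and in no control, and knockout replicate 3 was the nearest to the controls. The sum of both isoforms was 6396 ± 474 scaled reads per kb in controls and 7017 ± 394 in knockouts. The shares are a description, since Slc25a4 was singled out by the same values, and they depend on the transcript lengths used. With the full annotated length of Slc25a4 they were 35.7, 37.7, 38.8 and 36.8% in controls and 52.3, 49.0, 42.5 and 53.1% in knockouts, so the groups were again apart, with 2 knockouts above 50%.

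**Figure D2:**
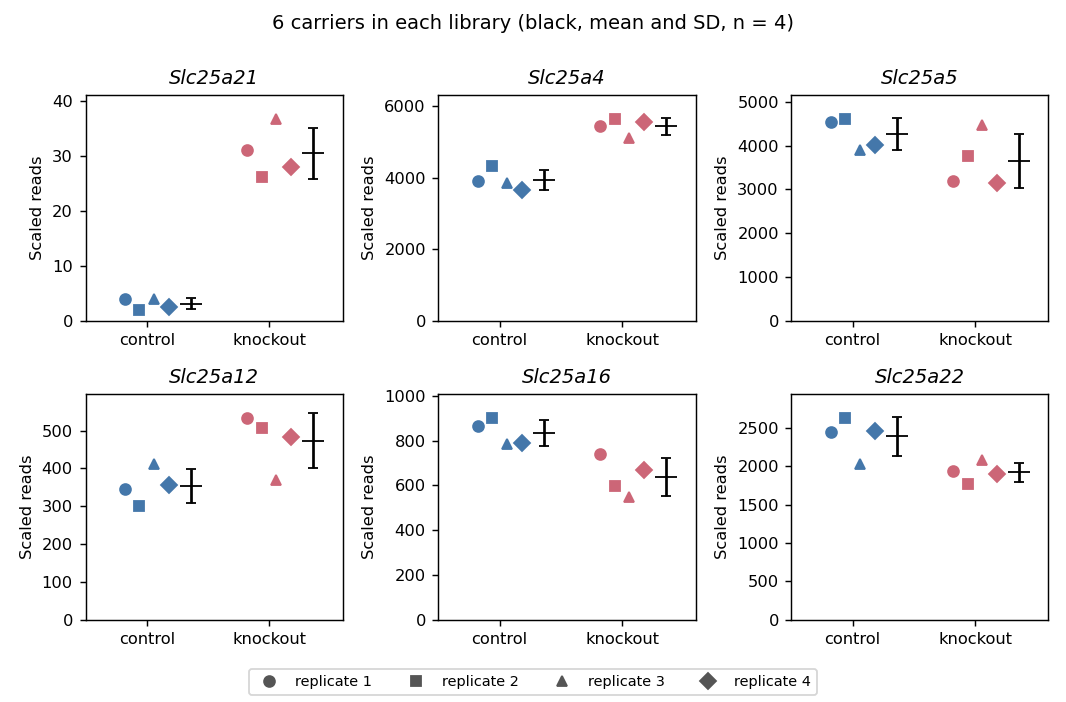
Scaled reads of 6 carriers in each library, with the replicate given by the symbol and the mean and SD of 4 libraries in black. Slc25a21 and Slc25a4 are separated upward in the knockout and Slc25a16 downward. Knockout replicate 3 falls within the control range for Slc25a5, Slc25a12 and Slc25a22.

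Among carriers of coenzyme A and of ATP-Mg, 0 passed with limma or edgeR, and DESeq2 called Slc25a16. Slc25a16, long linked to coenzyme A in the matrix, had the smallest p of the carriers not called. It was at 868, 900, 784 and 789 scaled reads in controls and at 742, 596, 550 and 669 in knockouts. It was the 1 carrier whose knockout libraries all lay below all controls, and knockout replicate 3 was the lowest. On the log2 scale the difference was -0.39 (SE 0.10, limma adjusted p = 0.112). DESeq2 on recovered reads called it (-0.41, adjusted p = 0.0146), where 5.32% of all tested genes passed.

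Slc25a42, the coenzyme A carrier of the inner membrane, was at 704, 1180, 739 and 727 scaled reads in controls and at 628, 591, 546 and 708 in knockouts. Control replicate 2 lay far above the rest, and only the highest knockout library entered the control range. The log2 fold change was -0.41 (SE 0.16, limma adjusted p = 0.294), and it was -0.23 without control replicate 2. The ATP-Mg and phosphate carriers Slc25a23, Slc25a24 and Slc25a25, which are gated by calcium, had log2 fold changes of -0.18, 0.18 and 0.05, and none passed. The peroxisomal carrier Slc25a17 was at 981 ± 62.4 and 887 ± 106 (-0.15, limma adjusted p = 0.525).

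The phosphate carrier Slc25a3, which supplies ATP synthase, was among the carriers with the highest levels per kb. It was at 6684, 5958, 5664 and 5696 scaled reads in controls and at 5604, 6511, 7710 and 5686 in knockouts. The groups overlapped, with the high value of knockout replicate 3 above all other libraries. Its log2 fold change was 0.08 (SE 0.11, limma adjusted p = 0.80).

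Carriers of amino acids were split in direction, and 0 of 8 tested passed with limma, edgeR or DESeq2 (2 at an unadjusted p under 0.05). Slc25a12, the aspartate and glutamate carrier of muscle and brain, was at 347, 300, 412 and 356 scaled reads in controls and at 532, 508, 368 and 484 in knockouts. The 3 knockout libraries with high muscle markers lay above all controls, and knockout replicate 3 lay among them. On the log2 scale the difference was 0.41 (SE 0.14, limma adjusted p = 0.20). It was 0.20 with the muscle score as a covariate and 0.068 for knockout replicate 3 alone against the controls, a value from 1 library. Without knockout replicate 3 it passed (0.53, adjusted p = 0.0404). Its liver-type counterpart Slc25a13 was much lower, at 34.8 ± 12.4 and 44.3 ± 8.58 (0.39, SE 0.27, adjusted p = 0.553).

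Slc25a22, a glutamate carrier, was the amino acid carrier with the highest count. It was at 2448, 2621, 2029 and 2456 scaled reads in controls and at 1936, 1769, 2074 and 1902 in knockouts. Only control replicate 3 reached down into the knockout range. The log2 fold change was -0.31 (SE 0.093, limma adjusted p = 0.156), and it was negative in all 23 alternatives, from -0.39 to -0.20. Slc25a44, the carrier of branched-chain amino acids that brown fat uses for heat production, was at 2058 ± 287 and 1880 ± 228 (-0.13, SE 0.12, adjusted p = 0.687). The ornithine carrier Slc25a15 was at 287 ± 17.6 and 257 ± 32.6 (-0.17), and the basic amino acid carrier Slc25a29 at 163 ± 10.6 and 178 ± 31.3 (0.11). Slc25a38, which brings in glycine for heme synthesis, was at 394 ± 27.7 and 383 ± 9.81 (-0.04). Slc25a45 was at 398 ± 54.2 and 419 ± 16.4 (0.08, adjusted p = 0.758).

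**Figure D3:**
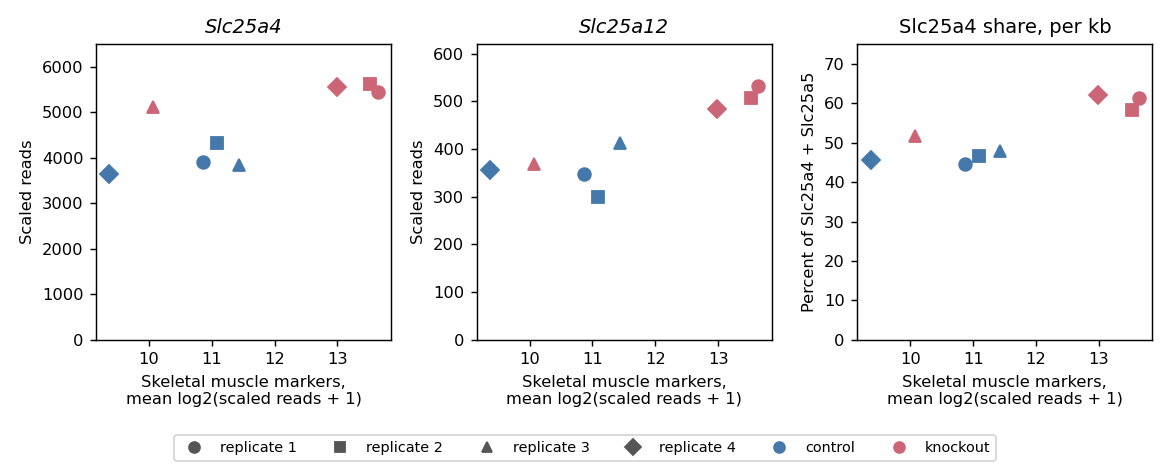
Scaled reads of Slc25a4 and Slc25a12, and the Slc25a4 share of Slc25a4 plus Slc25a5 per kb, against the mean log2 level of 11 skeletal muscle markers in each of 8 libraries. Knockout replicate 3, at 10.1 on the marker scale, is above every control for Slc25a4 (5112 scaled reads) and within them for Slc25a12 (368).

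Slc25a20, the carnitine and acylcarnitine carrier of fatty acid oxidation, was at 1917, 2424, 1219 and 1542 scaled reads in controls and at 1452, 1585, 1918 and 1455 in knockouts. The controls spread more widely than the knockouts and enclosed all of them. Its log2 fold change was -0.11 (SE 0.19, limma adjusted p = 0.837). It turned positive in 5 of 23 alternatives, for example 0.055 without control replicate 2 and 0.028 with the muscle score as a covariate.

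Of 8 cofactor, glutathione and pyrimidine nucleotide carriers 0 passed with limma, edgeR or DESeq2 (1 at an unadjusted p under 0.05), and 6 had a negative fold change. Slc25a39, which carries glutathione into mitochondria, was at 3650, 3502, 2583 and 3039 scaled reads in controls and at 2510, 2860, 3943 and 2775 in knockouts. Knockout replicate 3 had the highest value of all libraries and the other knockouts were low or within the controls. On the log2 scale the difference was -0.09 (SE 0.15, limma adjusted p = 0.839). Its paralogue Slc25a40 was higher in every knockout library than in any control, at 166 ± 2.63 and 179 ± 7.70, a log2 fold change of 0.10 (SE 0.091, adjusted p = 0.656). The margin was very small, with the highest control at 169 scaled reads and the lowest knockout at 170.

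Slc25a26, the S-adenosylmethionine carrier that supplies methyl groups to the matrix, was at 303, 318, 273 and 238 scaled reads in controls and at 160, 235, 251 and 226 in knockouts. Knockout replicate 1 was the lowest and the groups met at their edges. The log2 fold change was -0.39 (SE 0.16, limma adjusted p = 0.299). Its exons share 144 bases with Lrig1 on the opposite strand, and Lrig1 was at 1404 ± 180 and 1217 ± 257 scaled reads. Slc25a51, the NAD carrier, was at 2800 ± 247 and 2691 ± 371 (-0.06). Slc25a32, which carries folate and flavin cofactors, and the pyrimidine nucleotide carriers Slc25a33 and Slc25a36 had log2 fold changes of -0.07, -0.23 and -0.15.

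Slc25a37, mitoferrin of the red cell lineage, imports iron for heme and iron-sulfur clusters. It was at 765, 565, 806 and 808 scaled reads in controls and at 845, 968, 849 and 868 in knockouts. The knockouts lay above the controls without overlap, by a small margin. Its log2 fold change was 0.27 (SE 0.12, limma adjusted p = 0.332). Its exons share 381 and 92 bases with 2 predicted genes on the opposite strand. The broadly expressed mitoferrin Slc25a28 was at 744 ± 73.0 and 713 ± 74.9 (-0.06).

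The carriers most like uncoupling proteins, Slc25a14, Slc25a27 and Slc25a30, had low levels and log2 fold changes of 0.16, 0.02 and -0.14. The highest of them by scaled reads, Slc25a30, was at 167, 162, 160 and 141 in controls and at 163, 155, 111 and 147 in knockouts. Knockout replicate 3 was the only library outside the narrow range of the others (limma adjusted p = 0.693).

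The remaining members include carriers whose substrate is less well known and Slc25a46, an outer-membrane protein that shapes mitochondria. Slc25a46 was at 1221 ± 70.5 and 1142 ± 29.0 (-0.09, SE 0.068), the smallest standard error among the tested carriers. Slc25a35 was at 1502, 947, 1035 and 1232 scaled reads in controls and at 1168, 1517, 1785 and 998 in knockouts. The groups overlapped, with knockout replicate 3 at the top (log2 fold change 0.20, SE 0.20, limma adjusted p = 0.691). Slc25a53 was at 76.6, 50.6, 121 and 101 in controls and at 111, 146, 117 and 96.9 in knockouts. Its groups overlapped (0.49, SE 0.25, adjusted p = 0.427). Slc25a34 had the widest error, at 46.2 ± 27.0 and 25.6 ± 14.7 (-0.82, SE 0.46, adjusted p = 0.460). Slc25a47 and Slc25a48 were at 58.4 ± 26.3 and 46.5 ± 15.1 in controls and at 49.8 ± 6.10 and 57.1 ± 17.8 in knockouts.

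Slc25a2, Slc25a18, Slc25a31, Slc25a41, Slc25a43 and Slc25a54 were too low to be tested. Over the 4 controls they had 24, 38, 56, 7, 37 and 7 recovered reads, and over the 4 knockouts 30, 40, 19, 3, 52 and 1. Slc25a31, the adenine nucleotide carrier of germ cells, and Slc25a41, a relative of the ATP-Mg carriers, were thus near the limit of detection in this tissue. Without the filter on low values all 47 carriers were tested with limma, and none of these 6 was among the 2 called.

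Levels of carriers spanned several orders of magnitude. Per kb of transcript in controls, Slc25a1 came first at 10614 ± 5078 scaled reads, ahead of Slc25a10 (3898 ± 937), Slc25a3 (3753 ± 297), Slc25a5 (3444 ± 290) and Slc25a4 (2952 ± 216). From the second to the fifth, each differed from the next by less than the sum of both SDs. Slc25a39 followed at 1895 ± 287, and Slc25a20 at 1017 ± 297 and Slc25a11 at 1014 ± 57.6 were lower. In knockouts Slc25a1 was at 7420 ± 2389 scaled reads per kb, Slc25a4 at 4077 ± 171, Slc25a3 at 3989 ± 612, Slc25a10 at 3433 ± 669 and Slc25a5 at 2940 ± 495, and Slc25a4 and Slc25a3 differed by less than their spread. With the full annotated length of Slc25a4, 1925 bases in place of 1332, its level was 2042 scaled reads per kb in controls and 2821 in knockouts, the fifth place in both. The sum over all 47 carriers was 69668 ± 10452 scaled reads in controls and 63407 ± 9361 in knockouts, and it ranged from 60774 to 84065 and from 56028 to 76807. Slc25a1 alone made up 17683 ± 8459 and 12362 ± 3980 of it.

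**Figure D4:**
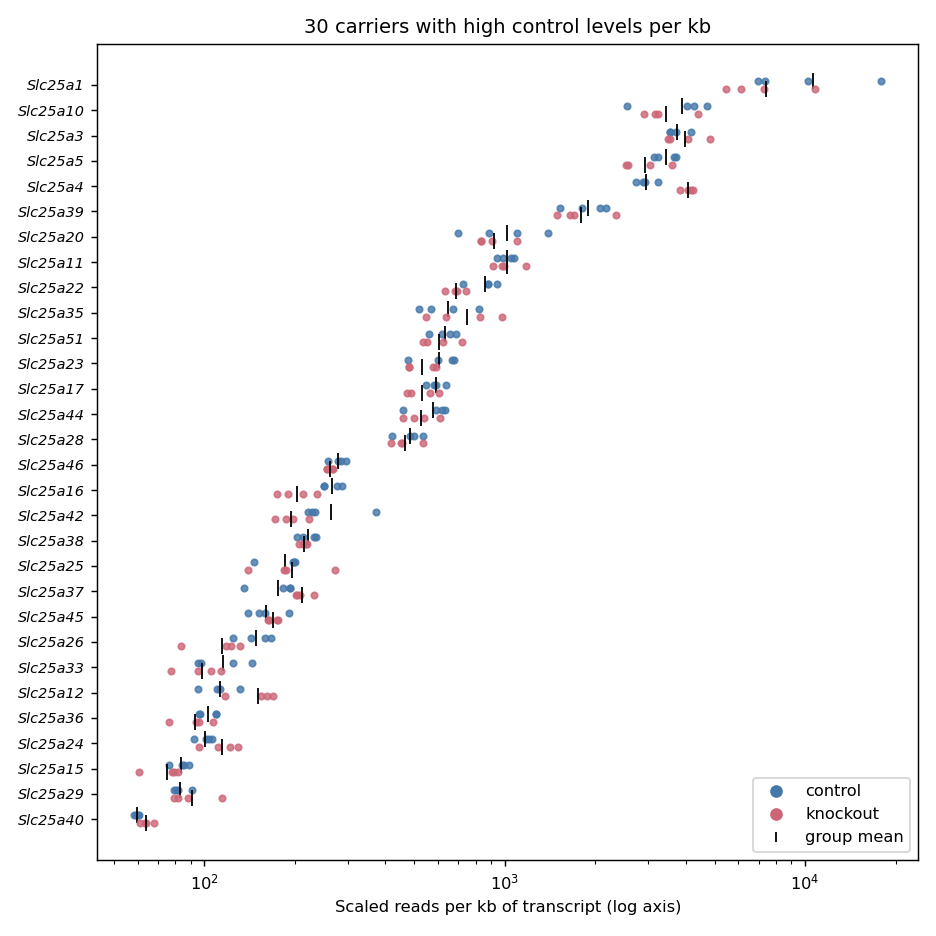
Scaled reads per kb of transcript, on a log axis, for 30 of the carriers with the highest control means, with 1 point per library and a bar at each group mean. Slc25a1 leads in both groups, and the 4 knockout libraries of Slc25a4 lie above its 4 controls, while its place among carriers depends on the transcript length used.

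Within a genotype the libraries differed in how often they held the highest value of a carrier. Knockout replicate 3 was the highest knockout library for 23 of 41 tested carriers (56.1%), against 32.1% of all tested genes. Control replicate 2 was the highest control for 16 carriers (39.0%), against 24.6% of all tested genes. These shares were not tested against each other. Knockout replicate 3 also had the highest summed level of 7 brown and beige adipocyte markers of the knockouts, 14733 scaled reads against 6685 to 9793 in the others, and the lowest muscle level.

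Of 5 relatives of the family under other names, 1 passed with limma, edgeR and DESeq2 alike, and 2 had an unadjusted p under 0.05 with limma. Shares over all tested genes were 1.64% with limma, 1.49% with edgeR, 5.32% with DESeq2 and 14.5% at an unadjusted p under 0.05. Ucp2, an uncoupling protein of many cell types including immune cells, rose from 4962 ± 359 to 8212 ± 1445 scaled reads, by 0.71 on the log2 scale (SE 0.13; by limma, adjusted p = 0.0243). Its values were 5325, 4465, 5032 and 5027 in controls and 6493, 8193, 10029 and 8135 in knockouts, with no overlap. The call was lost in 9 of 23 alternatives, among them the lymphocyte score as a covariate (0.62, adjusted p = 0.109) and the analyses without any 1 control. Summed levels of 9 lymphocyte markers were 6660 to 14158 in controls and 10516 to 14241 in knockouts, and of 3 macrophage markers 12247 to 15789 and 15562 to 19527. The part of macrophages in the result was not tested. Ucp3 was lower at an unadjusted p under 0.05 but did not pass (-0.45, SE 0.17, limma adjusted p = 0.256). Ucp1 (-0.41, SE 0.97), Mtch1 (0.20) and Mtch2 (-0.16) did not pass either.

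Among 18 other transporters of the inner membrane 1 passed with limma, where 9 had an unadjusted p under 0.05, and DESeq2 added Mcu. Over all tested genes the shares were 1.64% with limma, 14.5% at an unadjusted p under 0.05 and 5.32% with DESeq2. Sfxn1, a sideroflexin that carries serine into mitochondria, fell from 3665 ± 288 to 2628 ± 262 scaled reads, a log2 difference of -0.48 (SE 0.092; by limma, adjusted p = 0.0343). Its values were 4021, 3672, 3316 and 3651 in controls and 2981, 2644, 2524 and 2363 in knockouts, and the groups were separated. The call was lost in 9 of 23 alternatives, with the fold change between -0.57 and -0.41. The mitochondrial pyruvate carrier genes Mpc1 and Mpc2 had log2 fold changes of -0.46 and -0.04 and did not pass.

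The machinery that inserts carriers into the inner membrane gave no call. Of 13 genes, among them the TIM22 translocase genes Timm22 and Timm29 and the small chaperone genes Timm9 and Timm10, 0 passed with limma, edgeR or DESeq2, 0 reached an unadjusted p under 0.05, and the median log2 fold change was -0.10 (limma adjusted p 0.392 to 0.98). Of 15 genes taken as markers of mitochondrial content, such as Cs, Vdac1 and Tfam, 0 passed with these tools (3 were lower at an unadjusted p under 0.05), with a median of -0.12 and adjusted p of 0.187 to 0.996. The fold change was negative for 12 of these genes and positive for 3.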

How the data were processed

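RNA of inguinal fat was sequenced in 4 control and 4 knockout libraries. The authors aligned reads to mm10 with TopHat version 2, counted them with HOMER and used edgeR and DESeq version 1.8.3, per the labels' design text and the submitters' processing notes. Not given in the sources used here: the HOMER version, annotation, strand setting and scaling. There were 23373 rows per file, 1 of them without an accession and at 0, which was left out.

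The deposited values are a signal, read counts multiplied by 1 factor per library. In each library 99.99 to 100% of values above 0 were whole multiples of 1 step (0.442 to 0.545) within 0.02, and dividing by it gave the recovered reads. Even multiples made up 54.0 to 56.2% of low values, so a step may be 1 end of a read pair. Counting error is then larger than these reads imply.

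Accessions were matched to symbols with RefSeq of GRCm38.p6 (22527) and GENCODE M21 (124), 721 stayed unmatched, and of 2 rows for a symbol the larger was kept. Each carrier had 1 row. Levels per kb used the exon length of the GENCODE M21 transcript within the RefSeq gene span, which shortened 3 carriers by over 10%, Slc25a4, Slc25a12 and Slc25a48. Exon overlaps came from GENCODE M21.

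Genes at 10 or more scaled reads in 4 or more libraries were tested with limma (3.58.1, trend option) on log2(value + 1), a pseudocount of 1, with genotype as the only term. R was 4.3.3 and Python 3.11.15. Log2 fold changes are knockout minus control and understate changes of low genes. Alternatives used edgeR (4.0.16, 218 genes called) and DESeq2 (1.42.0) on recovered reads. Fits without libraries kept the genes tested with all 8. Tested on simulated reads (14615 genes), limma recovered 30% of genes changed 1.5-fold, 74% at 2-fold and 100% at 4-fold, with 6 of 158 calls false. Between libraries of a genotype, chi-square per degree of freedom was 26.6 to 143, so none was counted as a duplicate.

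The carriers, their role groups, the gene lists and the tests were chosen with earlier results of these data known. Values in every library are given for carriers past the threshold, for the highest of each role group and for the 8 with the smallest p not called, 16 in all. Marker lists of skeletal muscle, brown or beige adipocytes, adipocytes, lymphocytes, mammary epithelium, endothelium and macrophages held 11, 7, 9, 9, 8, 5 and 3 genes found. Mammary markers summed to 24.6 to 57.3 scaled reads in controls and 34.5 to 418 in knockouts. Of these 8 genes, 5 were at 0 in at least 1 library, 1 was at 0 in all, and only 1 was tested. Krt5 was at 237 and 82.2 in knockout replicates 1 and 2, at 0 in replicates 3 and 4 and at 0 to 0.49 in controls. The mammary covariate thus mostly separates knockout replicates 1 and 2 from the rest. Of the carriers tested, 1 is counted but not reported here by itself.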

Additional observations from a re-analysis of the deposited data

Results flagged for a closer look

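In 3 of 82 groups of 4 libraries of tested carriers, 1 library lay far from the other 3 by Dixon's criterion, which chance meets in about 1 of 20 groups. Slc25a42 was at 1180 scaled reads in control replicate 2 and at 704 to 739 in the other controls. Slc25a25 was at 482 in control replicate 1 and at 648 to 662 in the others. Slc25a15 was at 208 in knockout replicate 2 and at 268 to 280 in the others.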

How the results depend on the processing

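With 2 carriers called in the main analysis, 1 was called with a filter at 50 scaled reads (Slc25a21 is then not tested), with muscle or with mammary markers as a covariate, 0 in knockout replicate 3 alone against the controls (added after the data were seen; 1 library, assumed to vary like the controls, which alone give the spread, so a call lost there says little; limma, 9 carriers at an unadjusted p under 0.05), and 1 to 3 without any single library, 1 in each of the analyses that lacked control replicate 1, control replicate 4, knockout replicate 2 and knockout replicate 4. DESeq2 gave 3, and the other alternatives gave 2. These were other pseudocounts, no filter, TMM and RLE scaling, limma-voom, edgeR, all rows as deposited and lymphocyte markers as a covariate. Leaving out the 2 controls numbered 517 and 518, replicates 2 and 1, also gave 2. The sample titles number all other libraries, controls and knockouts, 356 to 361, and the reason for the gap is not given. The count over all genes, 239, was 776 with DESeq2 (63.4% higher, against 78.2%), 97 without the 2 controls numbered 517 and 518, 102 and 141 with lymphocyte and mammary markers as covariates, 19 in knockout replicate 3 alone, and 87 (without knockout replicate 4) to 449 (without knockout replicate 3) without 1 library.

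Directions turned in few cases. In knockout replicate 3 alone, a value from 1 library, log2 fold changes were positive for Slc25a1 (0.14), Slc25a5 (0.068), Slc25a20 (0.16) and Slc25a39 (0.32) and for the carriers' median (0.091). Slc25a3 was at -0.016 without knockout replicate 3. Slc25a20 ranged from -0.28 to 0.055 without 1 library (positive without control replicate 2) and was at 0.22 without both controls numbered 517 and 518, 0.028 with muscle and 0.12 with lymphocyte markers, and Slc25a39 at 0.088 without those controls, 0.15 with muscle and 0.026 with mammary markers. The carriers' median was 0.028 with muscle markers. No scaling moved the median of all genes by over 0.1. No paired analysis was possible because the numbers in the sample titles are not shared between genotypes. Depth limits Slc25a21 in controls (25 reads over 4 libraries) and the 6 carriers not tested.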
